A study of Mus musculus with 44 samples.

Results

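Pnrc1 mRNA carried among the shortest poly(A) tails of any mRNA measured in unstimulated mouse cortical cultures. In each of the 3 cultures stimulated for 30 min its mean tail was longer. Its mean tail was 56.4 nt in the unstimulated culture kept 14 days in vitro (DIV14), 87.0 nt after BDNF and 72.9 nt after glutamate and glycine (glu/gly). It was 43.4 nt in the unstimulated culture kept 10 days (DIV10) and 89.5 nt after 30 min of KCl. In the visual cortex of mice exposed to light for 1 h no such lengthening was detected: the mean tail was 46.1 nt ± 4.75 in the dark and 43.9 nt ± 3.99 in the light (SD, n = 4 mice each). The paralog Pnrc2 had longer mean tails than Pnrc1 in all of these libraries.

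The 2 genes described here, Pnrc1 (NM_001033225) and Pnrc2 (NM_026383), were taken by their RefSeq accessions from 17158 accessions listed in the series, and all 44 libraries listed both. Pnrc1 was selected on its measured tail length in the cultures stimulated for 30 min, so those changes and all other measures from the cultures are given as a description, without a test. Pnrc2 was included as its paralog.

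Pnrc1 and Pnrc2 are small proline-rich proteins that were first described as coactivators of nuclear receptors, which they bind through a short SH3-binding motif and an LXXLL-type box. PNRC2 also links the decapping activator DCP1A to the decay factor UPF1 and so takes part in decapping during nonsense-mediated and Staufen-mediated decay, whereas PNRC1 has been described as bringing decapping enzymes to the nucleolus. A poly(A) tail is added to an mRNA in the nucleus and then shortens in the cytoplasm, where shortening to a short tail commonly precedes decapping. In cytoplasmic polyadenylation a tail is extended again, as has been described for mRNAs with a cytoplasmic polyadenylation element in their 3′ UTR, which is bound by CPEB proteins.

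The samples were C57BL6J mouse cortical neurons in primary culture and mouse brain tissue. Neurons were taken from newborn pups, and dividing cells were reduced with ara-C. The DIV14 cultures were unstimulated, treated with BDNF (a neurotrophin) or with glu/gly, or transduced with a lentivirus that made GFP, or GFP with miR-1 or with miR-155, from a synapsin promoter. The DIV10 cultures received KCl, which depolarizes neurons, for 0, 10 or 30 min. Tissues were adult cortex, adult hippocampus and embryonic hippocampus, all from male animals where adult. The visual cortex was taken from 4 mice in the dark (0 h) and 4 mice after a light exposure of 1 h. The paper states that all of these mice had been kept in the dark for 1 week beforehand. Every culture and every tissue was represented by a single library of each assay (RNA-seq, ribosome-protected fragments or RPFs, and tail length), except that the RPF libraries of the miRNA cultures had contradictory labels and were put in no group, so differences between them have no replicate check. The visual cortex had tail-length libraries only. The methods say that culture samples came from batches of 3, and which cultures shared a batch is not given in the sources used here, so a batch and a treatment cannot be told apart.

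Depth was low for these genes. TAIL-seq of the cultures placed 389654 to 1057812 tags on genes, which left 38 to 91 tags for Pnrc1 and 25 to 109 for Pnrc2, and RNA-seq placed 448022 to 2111244 reads on genes. Intervals given for counts cover counting error only. A mean tail from 1 library has no interval because the spread over single tags was not given. Neuronal markers were present in every culture, with a summed level of 238 to 658 RPM over 8 genes, beside 197 to 451 RPM for 6 astrocyte markers, 6.71 to 19.8 RPM for 6 oligodendrocyte markers and 0.175 to 5.78 RPM for 6 microglial markers, of which up to 4 and up to 5 were at 0 in a culture. In the DIV10 cultures the astrocyte sum was above the neuronal one. It was 404 against 329 RPM without KCl, 441 against 410 at 10 min and 266 against 238 at 30 min. The sums cover different genes and give no cell shares.

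Sequences near the 3′ ends are shown because elements described for cytoplasmic polyadenylation and decay lie there. Both genes lie on the minus strand of chromosome 4 (GRCm38.p6, RefSeq), Pnrc1 with 2 exons at chr4:33245423-33248787 and Pnrc2 with 3 exons at chr4:135870926-135873846. The annotated 3′ UTR is 641 nt long in Pnrc1 and 1088 nt in Pnrc2. Motifs were searched on the sense strand in the last 600 nt of 16677 transcripts, among them Pnrc1 and Pnrc2. They were the cytoplasmic polyadenylation element as TTTTAT or TTTTAAT, the Pumilio motif TGTANATA, the pentamer ATTTA, and the poly(A) signals AATAAA and ATTAAA. Pnrc1 held 1 TTTTAT and 1 TTTTAAT, which 37.6% and 14.9% of all transcripts also hold at least once, and 2 Pumilio motifs, a number reached by 1.98%. Matches are in capitals, and the first Pnrc1 line holds TTTTAT and, 4 nt downstream, a Pumilio motif.
Pnrc1, 3′ UTR, chr4:33245901-33245930: attataTTTTATatttTGTAAATActgtat
Pnrc1, 3′ UTR, chr4:33245792-33245815: tggtgtttTGTATATAtacagtgg
Pnrc1, 3′ UTR, chr4:33245581-33245603: aacttgacTTTTAATctgcaatt
Pnrc2, 3′ UTR, chr4:135871499-135871522: taaagtcaTGTAAATAcatgtaat
Pnrc2, 3′ UTR, chr4:135871271-135871292: tattaagtTTTTATaattgaaa
Pnrc2, 3′ UTR, chr4:135870936-135870957: gactgaaaAATAAAattcataa

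The last line shows an AATAAA that ends 18 nt from the annotated end of Pnrc2. Neither AATAAA nor ATTAAA occurs in the last 600 nt of Pnrc1, as in 11.8% of transcripts. Pnrc2 held 1 TTTTAT, 1 Pumilio motif and no TTTTAAT. A match is a description of letters and not a bound site.

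In the unstimulated DIV14 culture the mean Pnrc1 tail of 56.4 nt (74 tags) lay below that of the median gene, 111.8 nt, and 2 of 4364 genes with at least 50 tags had shorter tails. In the unstimulated DIV10 culture it was 43.4 nt (55 tags), below a median gene at 103.6 nt, and 1 of 2869 genes was shorter. That gene was Lars2, the mitochondrial leucyl-tRNA synthetase, which had the shortest tails in every TAIL-seq library. The median over single Pnrc1 tags was lower than the mean, at 41 nt and 28 nt. Pnrc2 had mean tails of 110.4 nt (109 tags) and 116.5 nt (78 tags) in these cultures, longer than those of 45.9% and 85.2% of genes.

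After BDNF the mean Pnrc1 tail was 87.0 nt (83 tags), a log2 change of 0.63 or 30.7 nt, and after glu/gly it was 72.9 nt (72 tags), a log2 change of 0.37 or 16.6 nt. With KCl it was 45.5 nt (58 tags) at 10 min, a log2 change of 0.07, and 89.5 nt (91 tags) at 30 min, a log2 change of 1.04 or 46.0 nt. The change was larger than the SD over genes in each 30-min stimulation and smaller at 10 min of KCl. Pnrc1 was selected on these tails, so this only describes them. The SD over genes is also not the error of a mean from so few tags. A log2 change of at least 0.3 was reached by 0.415% of 4098 genes after BDNF, 0.171% of 3516 after glu/gly, 0.393% of 2543 at 10 min of KCl and 0.782% of 2815 at 30 min. The SD of the change over genes was 0.10 in each of these comparisons, and the median over genes lay between -0.06 after glu/gly and 0.03 at 30 min of KCl.

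The median over tags moved further than the mean. It was 41 nt unstimulated, 81 nt after BDNF and 62.5 nt after glu/gly. At 30 min of KCl it was 94 nt, against 28 nt without KCl and 27 nt at 10 min. By the mean Pnrc1 stayed in the lower part of the range of genes, with 3.12% of genes shorter after BDNF, 0.42% after glu/gly and 9.28% after 30 min of KCl. By the median 3.94%, 0.53% and 28.8% of genes were shorter. At 30 min of KCl its median of 94 nt was above that of Pnrc2, 92 nt. RNA standards of known tail length had been added to the libraries. In all 9 culture libraries a standard of nominally 50 nt had a median of 55 nt or 56 nt and one of 30 nt a median of 27 nt or 28 nt. Their means spread more, over 59.7 to 69.6 nt and 30.0 to 44.8 nt, and were highest in the 30-min KCl culture, against 66.3 nt and 37.8 nt in the unstimulated DIV10 culture. Another standard of nominally 50 nt, with at least 50 tags in 6 of the cultures, had medians of 65 to 68 nt and means of 73.2 to 90.9 nt, again highest at 30 min of KCl. The part of this in the Pnrc1 tail was not tested.

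**Figure D1:**
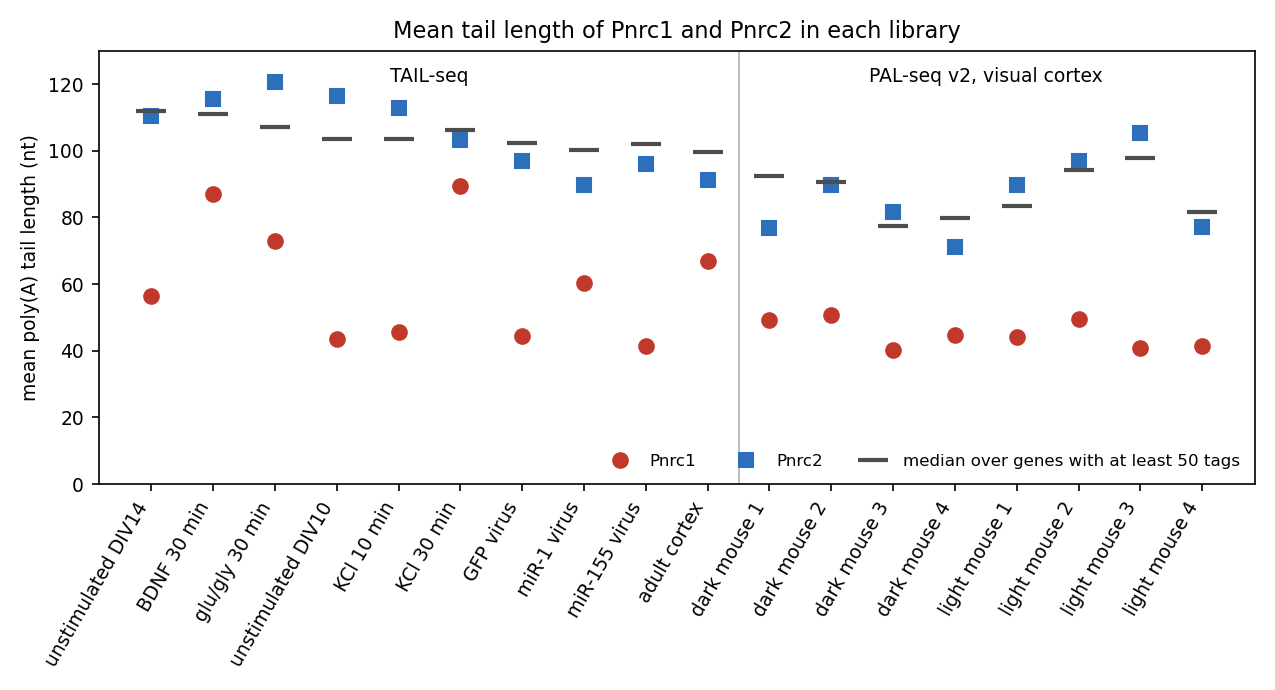
Mean poly(A) tail length in nt of Pnrc1 (circles) and Pnrc2 (squares) in each library, with dashes for the median of the gene means over genes with at least 50 tags; the vertical line separates TAIL-seq from PAL-seq v2 libraries, and each point is 1 library. Pnrc1 lies between 41.3 and 60.2 nt in the 6 cultures not stimulated for 30 min and between 72.9 and 89.5 nt in the 3 that were, and stays at 40.1 to 50.6 nt in all 8 mice.

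By the order of the log2 change Pnrc1 was second after BDNF, second after glu/gly and first at 30 min of KCl. Next to it after BDNF were Lars2 at 0.69 above, and Egr4, an activity-induced transcription factor, at 0.47 and Selenoi at 0.41 below. After glu/gly the neighbors were Cracd at 0.37 above, and Egr4 and the transcription factor Yy1, at 0.35 and 0.34, below. At 30 min of KCl the next genes were Lars2 at 0.61 and Tob1, an adaptor for the CCR4-NOT deadenylase, at 0.45. Pnrc1 was selected on these changes, so this order only describes it. By the change in nt it ranked 7 of 4098 genes after BDNF, 22 of 3516 after glu/gly and 1 of 2815 at 30 min of KCl. The log2 scale gives more weight to the same change in nt where the starting tail is short.

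The other cultures gave the range against which these values can be set. Mean Pnrc1 tails were 44.5 nt (40 tags) with the GFP virus, 60.2 nt (38 tags) with miR-1 and 41.3 nt (49 tags) with miR-155, all from fewer than the 50 tags asked of other genes. The shortest of the 3 cultures stimulated for 30 min exceeded the longest of the 6 other cultures by 12.7 nt. Pnrc1 was selected on these tails, so this gap only describes it. Of 1630 genes with at least 50 tags in all 9 cultures, 1.78% had no overlap in this direction. Their gap was at most 4.77 nt, in Cyp46a1, the brain cholesterol 24-hydroxylase. Pnrc1 is not among these genes because of its lower tag numbers, so the sizes of the gaps are not compared.

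Between the lentivirus cultures, the log2 change in the mean Pnrc1 tail was 0.44 with miR-1 and -0.11 with miR-155 against GFP. The miR-1 difference, 15.7 nt between 2 unstimulated cultures, was about as large as the 16.6 nt (log2 change 0.37) after glu/gly. A log2 change of at least 0.3 was found for 0.286% of 1748 genes with miR-1 and 0.112% of 1783 with miR-155. Both comparisons share the GFP culture. Against the unstimulated DIV14 culture the GFP culture had a log2 change of -0.34, in a comparison where the median gene was at -0.11 and 3.66% of 1856 genes were at -0.3 or lower. The mature miR-155 is shown with its seed, bases 2 to 8, in capitals (RefSeq, GRCm38.p6, plus strand), because a match to it would mark a predicted target.
miR-155-5p, chr16:84714143-84714165: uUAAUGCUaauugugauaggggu

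The matching letters AGCATTA were not in the last 600 nt of either transcript, and were in 3.33% of all. The miR-1 sequence was not used here.

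The values of Pnrc2 moved less in the 30-min stimulations and in mixed directions. Its mean tail was 110.4 nt unstimulated, 115.7 nt after BDNF and 120.8 nt after glu/gly, log2 changes of 0.07 and 0.13. With KCl it was 112.9 nt at 10 min and 103.4 nt at 30 min, against 116.5 nt without, log2 changes of -0.04 and -0.17. The lengthening of Pnrc2 after glu/gly lay above the change of 97.2% of 3516 genes. At 30 min of KCl 2.42% of genes had a lower change than Pnrc2, while none had a higher one than Pnrc1. With GFP, miR-1 and miR-155 the Pnrc2 means were 97.0, 89.9 and 96.1 nt from 25 to 36 tags.

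**Figure D2:**
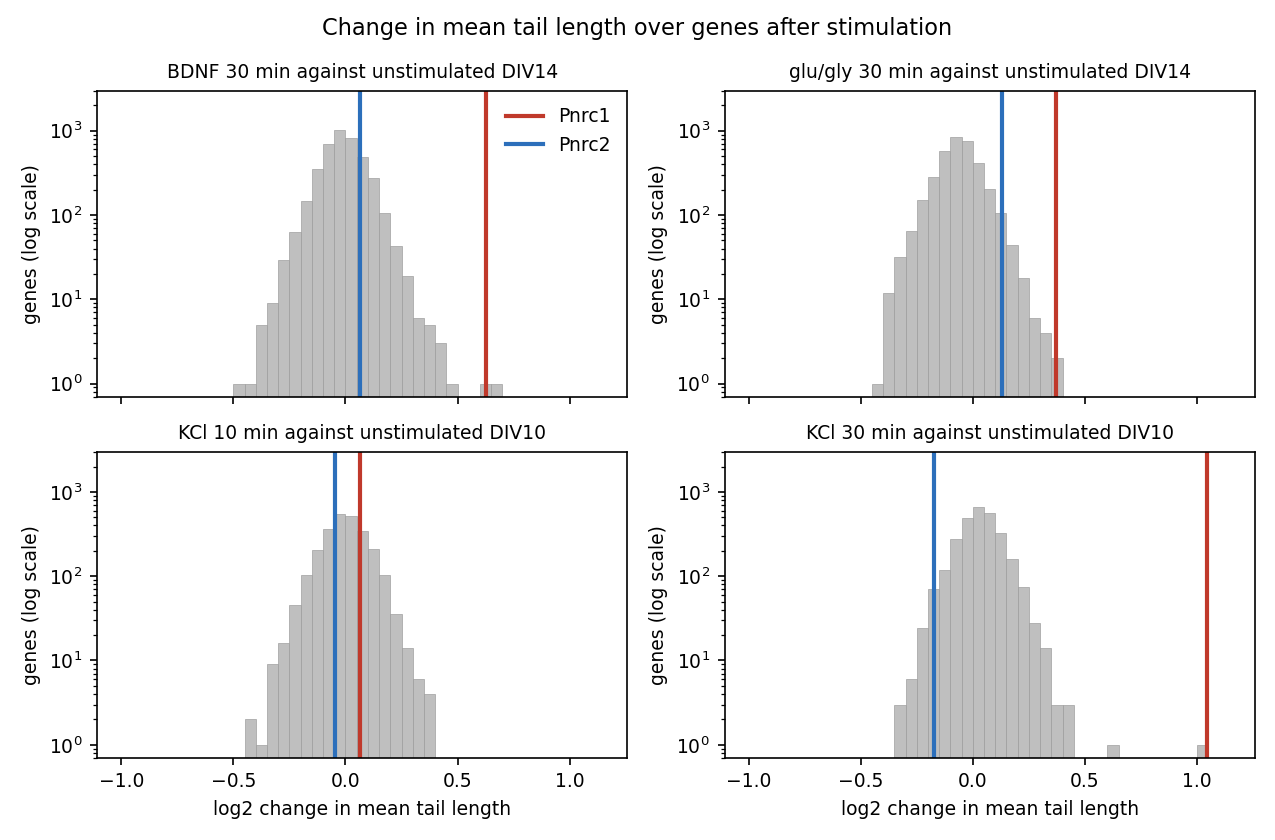
Number of genes (log scale) by log2 change in mean tail length for the 4 stimulations, with vertical lines at Pnrc1 and Pnrc2; genes have at least 50 tags in both cultures. Pnrc1 is at 0.63, 0.37, 0.07 and 1.04 and Pnrc2 at 0.07, 0.13, -0.04 and -0.17 for BDNF, glu/gly, 10 min and 30 min of KCl.

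The level of Pnrc1 mRNA showed no change beyond counting error in the same cultures. By TAIL-seq tags, scaled by all tags on genes, the fold over the unstimulated culture was 1.11 after BDNF (95% counting interval 0.80 to 1.53) and 1.27 after glu/gly (0.90 to 1.78). For KCl it was 1.11 (0.75 to 1.64) at 10 min and 1.29 (0.91 to 1.83) at 30 min. By RNA-seq reads on the open reading frame the folds were 0.88 (0.54 to 1.42) after BDNF, 0.95 (0.61 to 1.48) after glu/gly, 1.20 (0.75 to 1.89) at 10 min and 0.92 (0.59 to 1.42) at 30 min of KCl. Every interval included 1, so a change within these intervals was not detectable at this depth. No value reached a log2 change of 1, which in tags 0.244% of genes reached upward after BDNF, 0.199% after glu/gly, 0.0393% at 10 min and 0.107% at 30 min of KCl.

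RPF counts of Pnrc1 were larger than its RNA-seq counts, and the RPF folds went in different directions. The counts were 438 unstimulated, 327 after BDNF and 215 after glu/gly at DIV14. At DIV10 they were 507 without KCl, 340 at 10 min and 249 at 30 min. Scaled by all RPFs on genes, the fold was 0.88 after BDNF (0.76 to 1.01) and 0.76 after glu/gly (0.64 to 0.89). With KCl the fold was 1.15 (1.00 to 1.32) at 10 min and 1.53 (1.31 to 1.78) at 30 min, a change above that of 93.9% of 11526 genes. After glu/gly 16.2% of 10910 genes had a lower change than Pnrc1. The GFP culture, which was not stimulated, had a fold of 0.64 (0.54 to 0.77) over the same unstimulated DIV14 culture. The longer tails stood beside a lower footprint level after glu/gly and a higher one at 30 min of KCl in these single libraries. Whether either footprint difference goes with the stimulation was not tested. Pnrc2 had too few RPFs to follow, with 7 to 44 per culture. Its one interval that excluded 1 was at 10 min of KCl, at 0.31 (0.13 to 0.67) from 8 RPFs against 44.

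**Figure D3:**
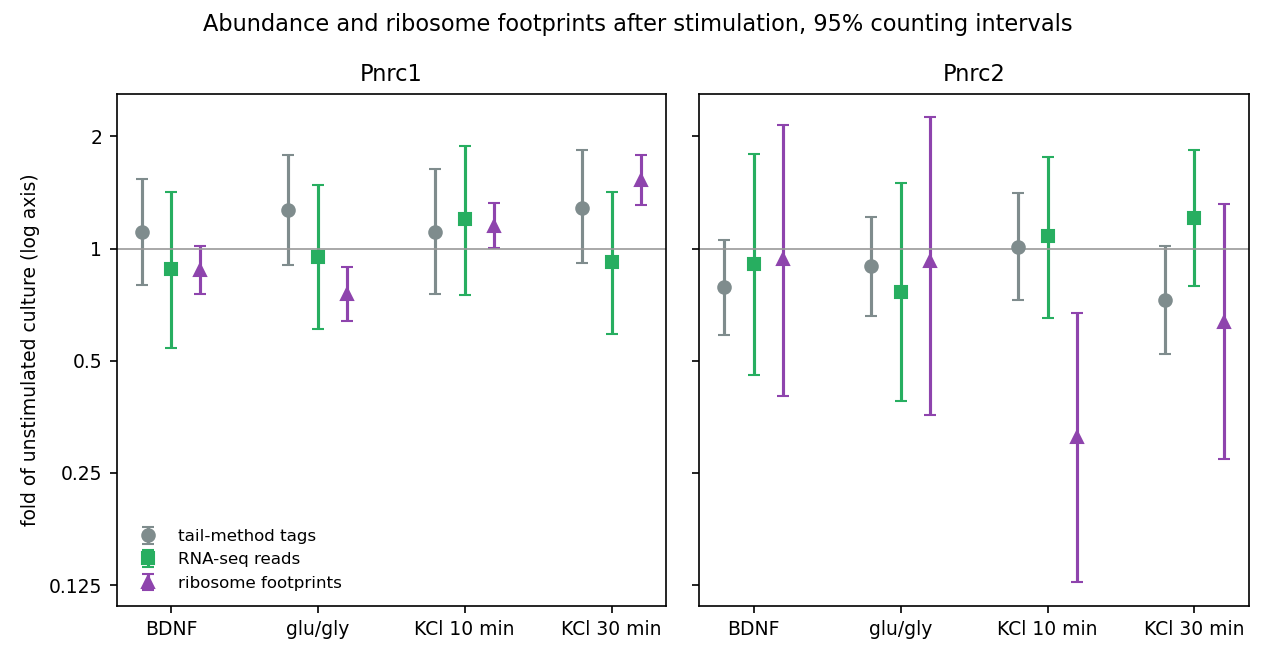
Fold of the unstimulated culture (log axis) for Pnrc1 (left) and Pnrc2 (right) in tail-method tags, RNA-seq reads and RPFs, each scaled by its total on genes; bars are 95% counting intervals of 1 library against 1 library. For Pnrc1 the RPF fold is 0.76 after glu/gly and 1.53 at 30 min of KCl, and all tag and RNA-seq intervals include 1.

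Translational efficiency (TE), the ratio of RPF to RNA-seq RPM, lay further apart between the paralogs than between conditions for Pnrc1. Relative to the median gene of the same sample, log2 TE of Pnrc1 was 0.83 in the unstimulated DIV14 culture (95% counting interval 0.37 to 1.33) and that of Pnrc2 was -3.07 (-4.13 to -2.05). Pnrc1 had a higher TE than 80.9% of genes there and Pnrc2 than 0.27%. The genes compared had at least 10 RPM in RNA-seq, a level that Pnrc1 itself reached in 8 of the 10 samples and Pnrc2 in 3. In all 10 samples with both measures the interval of Pnrc1 lay above that of Pnrc2. Pnrc2 was closest to the median gene in adult cortex, at -1.36 (-2.19 to -0.50), and in adult hippocampus, at -1.43 (-1.68 to -1.18), and lower in embryonic hippocampus, at -3.54 (-3.87 to -3.21). Per the methods, RNA-seq of both hippocampal samples used poly(A)-selected RNA, whereas adult cortex and the cultures described there used rRNA-depleted RNA. Between hippocampus and those rRNA-depleted samples, preparation and tissue therefore cannot be told apart in RNA-seq levels or TE. Adult and embryonic hippocampus shared 1 preparation.

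The same contrast was seen in footprint density per length. RPF per nt of counted frame (844 nt in Pnrc1, 373 nt in Pnrc2) was 12.9-fold higher for Pnrc1 in the unstimulated DIV14 culture (7.74 to 23.3). It was 2.54-fold higher in adult hippocampus (2.23 to 2.91), the lowest of the 10 samples. RNA-seq reads per nt of Pnrc1 were 0.86-fold those of Pnrc2 in the unstimulated DIV14 culture (0.50 to 1.54). They were lower for Pnrc1 in embryonic hippocampus, at 0.40-fold (0.35 to 0.47, poly(A)-selected RNA), and higher in adult cortex, at 2.07-fold (1.30 to 3.44, rRNA-depleted RNA).

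TE of Pnrc2 at 10 min of KCl changed by -2.14 (-3.42 to -0.86), where 14.9% of genes were at -1 or lower. TE of Pnrc1 stayed above the median gene in every sample, although the intervals for glu/gly and GFP reached below it. The change in log2 TE, beyond that of the median gene, was 0.01 after BDNF, -0.33 after glu/gly, 0.00 at 10 min of KCl and 0.85 at 30 min. Without that subtraction the change at 30 min was 1.17 (0.53 to 1.81) and lay above that of 96.4% of 3535 genes, and it was 0.73 when both assays were scaled by reads on genes. A log2 TE change of at least 1 was seen in 8.26% of genes in this comparison, so many genes moved this far. The Pnrc1 value rests on 36 and 58 RNA-seq reads, or 6.19 and 9.51 RPM, both under the 10 RPM asked of the genes it is set against.

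**Figure D4:**
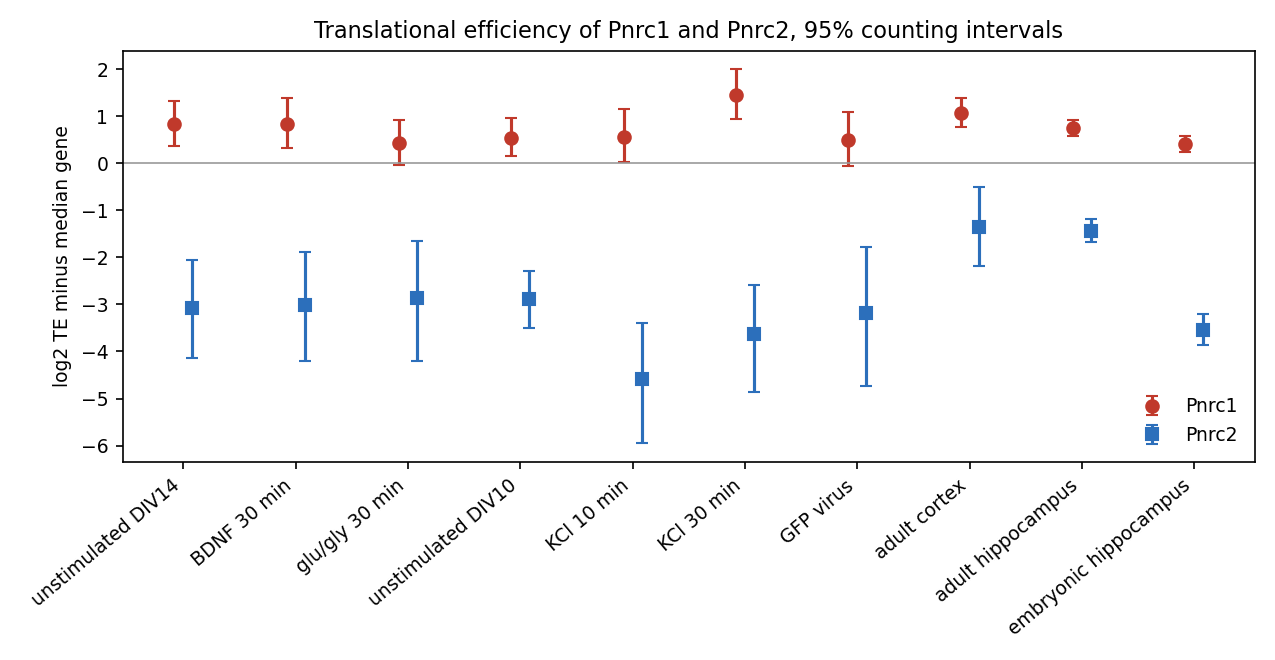
Log2 TE minus that of the median gene with at least 10 RPM in RNA-seq, for Pnrc1 (circles) and Pnrc2 (squares) in the 10 samples with RPF and RNA-seq; bars are 95% counting intervals. Pnrc1 is at 0.83 and Pnrc2 at -3.07 in the unstimulated DIV14 culture, and the intervals of both genes stay apart in every sample.

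Across all samples, neighbors in the order of Pnrc1 levels overlapped in their counting intervals, whereas samples further apart in that order could be separate. CPM, the count scaled to the total on genes of its library, ran for RNA-seq from 80.6 in the unstimulated DIV14 culture (57.8 to 109) down to 44.8 at 30 min of KCl (31.4 to 62.1), and the interval of every sample overlapped that of the next in order. RPF CPM ran from 104.5 in adult cortex (97.4 to 112) to 53.5 in the unstimulated DIV10 culture (48.9 to 58.4), again with each sample overlapping its neighbor. The RPF ends did not overlap, whereas the RNA-seq ends did. RNA-seq of the unstimulated DIV14 culture and of embryonic hippocampus (43.2 to 53.1, poly(A)-selected RNA) did not overlap. RNA-seq values in adult tissue lay within the range of the cultures, with 60.3 CPM in adult cortex and 48.8 in adult hippocampus. The RPF value of adult cortex lay above that of every culture. Pnrc2 RNA-seq CPM ran from 54.8 at 30 min of KCl (39.8 to 73.6) down to 12.9 in adult cortex (8.07 to 19.5). Its RPFs were highest in adult hippocampus, at 12.5 CPM, where the interval did not overlap that of any other sample.

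In adult cortex the mean Pnrc1 tail was 66.9 nt (84 tags), with 0.67% of 2829 genes shorter, and that of Pnrc2 was 91.2 nt (33 tags). For the hippocampus the deposited tail value was unnamed and was read as a median because its values all fell on whole or 0.5 nt steps. Pnrc1 was at 32 nt (24 tags) and Pnrc2 at 26 nt (23 tags) in adult hippocampus, and at 19 nt (21 tags) and 45.5 nt (20 tags) in embryonic hippocampus. At these tag numbers no order of the paralogs can be read from the hippocampus.

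The visual cortex asked whether a sensory stimulus changes tails in the animal, and it was the one place with replicates. Immediate-early genes marked the light response: 13 of the 14 listed had more tags in the light (edgeR quasi-likelihood test, Benjamini-Hochberg adjusted), against 1.21% of 9554 genes tested. Tag CPM of Npas4 was 6.34 in the dark and 37.4 in the light (log2 change 2.84 ± 0.39 SE, adjusted p = 5.17e-05 by edgeR). Arc rose by 3.29 ± 0.43 (adjusted p = 2.49e-05 by edgeR), and Fos by 3.91 ± 0.42 (adjusted p = 1.42e-06 by edgeR), both on the log2 scale.

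Pnrc1 had the shortest mean tail of all genes with at least 50 tags in 7 of the 8 mice, among 4778 to 8479 genes. In the eighth, light mouse 4, only Usp8, a deubiquitinating enzyme, was shorter, at 41.0 nt against 41.4 nt. Lars2, which was shorter in the cultures, had under 50 tags in all mice but dark mouse 2 and so was not ranked in the others. The mean Pnrc1 tails of dark mice 1 to 4 were 49.1, 50.6, 40.1 and 44.7 nt, and those of light mice 1 to 4 were 44.1, 49.5, 40.7 and 41.4 nt. The groups overlapped almost entirely, and the medians over tags were 26 to 30 nt in the dark and 23 to 35 nt in the light.

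The difference in mean tail, light minus dark, was -2.23 nt (95% interval -15.3 to 10.9, limma, adjusted p = 0.999). limma gave all genes the same SE here, 6.68 nt, so the interval reflects the spread typical of all genes. With this test 0.231% of 4321 genes were called longer and 0 shorter, and 170 (3.93%) had an unadjusted p under 0.05 in either direction by limma. An exact two-sided permutation test over the 8 mice gave p = 0.514 (0.514 after adjustment over 4 single values). Duration, tissue, kind of stimulus and tail method all differ between the mice and the cultures, so no size was compared between them. The standard of nominally 50 nt was measured at a mean of 53.0 to 53.6 nt in the 8 mice.

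Pnrc1 tags were more numerous on average in the light, without passing the test. Dark mice 1 to 4 had 162, 182, 175 and 256 tag CPM, and light mice 1 to 4 had 264, 282, 249.8 and 245. Dark mouse 4 lay among the light mice, and the other dark mice were below them, so the groups overlapped. The log2 change was 0.46 ± 0.12 (SE) with an adjusted p of 0.0547 by edgeR, which did not pass the threshold of 0.05. It passed with DESeq2 (adjusted p = 0.0266), without the filter on low counts (0.00402, edgeR) and without dark mouse 4 (0.00123, edgeR). The exact permutation test gave p = 0.0857 (0.286 after adjustment over 4 values), where the smallest p that 4 against 4 mice allow is 0.0286. Fewer cells of a type and less mRNA per cell cannot be told apart in such bulk samples. Astrocyte markers summed to 1532 to 2162 CPM in the dark and 1339 to 1571 in the light, oligodendrocyte markers to 800.4 to 1377 and 539 to 999.6, neuronal markers to 9005 to 10036 and 9150 to 10507, and microglial markers to 380.5 to 483 and 408 to 427. The part of these differences in the tag counts was not tested.

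No change passed a test for Pnrc2. Its tag CPM was 89.6, 68.0, 79.6 and 77.3 in dark mice 1 to 4 and 77.8, 70.9, 82.1 and 57.0 in light mice 1 to 4 (log2 change -0.09 ± 0.14 SE, edgeR adjusted p = 0.916). Its mean tails were 76.8, 89.8, 81.6 and 71.1 nt in the dark and 89.7, 97.0, 105.4 and 77.2 nt in the light. This was a difference of 12.5 nt (95% interval -0.60 to 25.6, limma adjusted p = 0.999, exact permutation p = 0.143, 0.286 after adjustment over 4 values), and the groups overlapped. Over all genes tested the median difference was 3.75 nt.

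**Figure D5:**
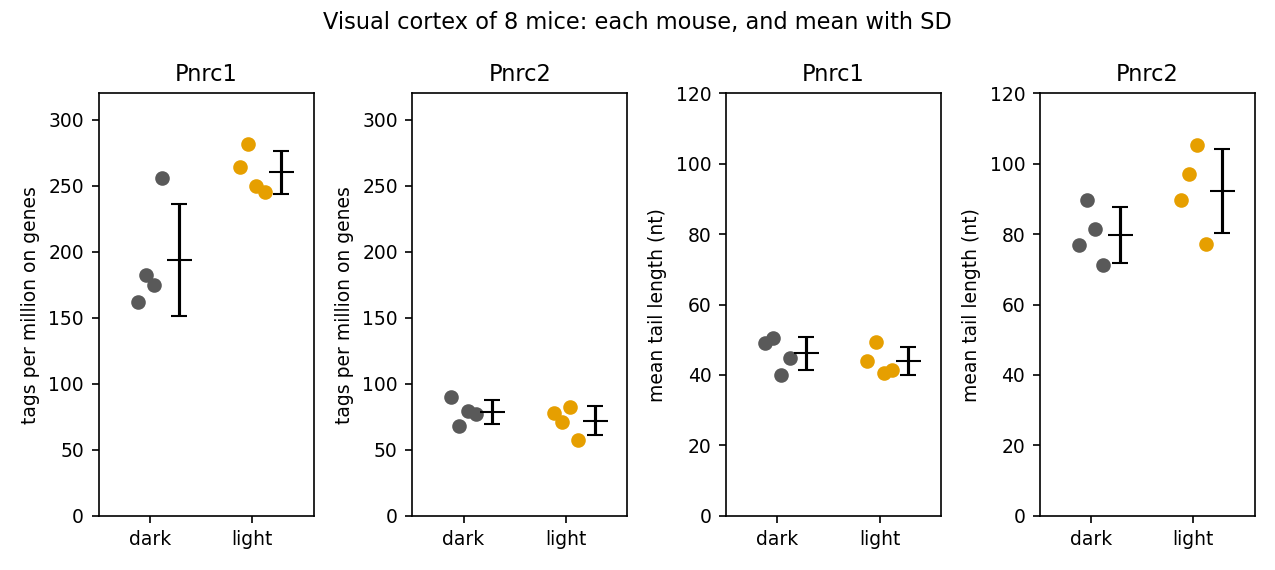
Tag CPM (2 left panels) and mean tail length in nt (2 right panels) of Pnrc1 and Pnrc2 in each of 4 dark and 4 light mice, with the mean and SD beside the points. Pnrc1 tags average 194 in the dark and 260 in the light with 1 dark mouse among the light ones, and its tails overlap at 40.1 to 50.6 nt.

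Set against each other within a mouse, the paralogs lay further apart in the light, without passing the test. The Pnrc1 tail minus the Pnrc2 tail was -41.5 to -26.4 nt in the dark and -64.7 to -35.8 nt in the light, with 3 of 4 light mice below every dark mouse (difference of the means -14.7 nt, exact two-sided permutation p = 0.0857, 0.171 after adjustment over 6 tests). The ratio of Pnrc1 to Pnrc2 tags was 1.81 to 3.31 in the dark and 3.04 to 4.30 in the light. Of the 4 light mice, 3 lay above every dark mouse (mean log2 difference 0.58, exact permutation p = 0.0571, 0.171 after adjustment).

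Listed genes for mRNA decay, cytoplasmic polyadenylation and nuclear receptors were not called in the light. At the share called over all genes, lists this short would often hold no call, so this is no result about them. None of 17 tested genes for decapping and 5′ decay, 14 for nonsense-mediated and Staufen-mediated decay, 15 for cytoplasmic polyadenylation and 9 nuclear receptors and their adaptor passed the edgeR test, against 1.34% of all genes in either direction. By unadjusted edgeR p under 0.05, 1, 1, 4 and 0 of them passed, against 9.45% of all 9554 genes, and DESeq2 called 0 in each list. Their median log2 changes were -0.02, 0.08, 0.11 and -0.07, beside -0.00 over all genes. Of their 8, 7, 4 and 3 members with enough tags, 0 passed the limma test of tail length, and 0, 0, 1 and 0 had an unadjusted p under 0.05. Their median differences were 0.72, 7.07, 6.70 and 3.94 nt, beside 3.75 nt over all genes. In the cultures, of 5 to 7 measured decapping genes in each stimulation, 0 reached a log2 tail change of 0.3 in either direction. Upward, 0.171 to 0.782% of all genes reached it, so 0 of so few genes is not told apart from that share.

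Among immediate-early genes, both tags and tails were higher after BDNF. All 7 measured had a log2 change in tags of at least 1, and 4 had tails longer by a log2 change of at least 0.3. Over all 4098 genes these shares were 0.244% and 0.415%. Egr4 went from 107.6 nt to 149.2 nt, Junb from 113.7 nt to 148.3 nt and Egr1 from 123.5 nt to 159.5 nt, with log2 tag changes of 2.08, 2.25 and 1.69. After glu/gly 6 of 7 passed the tag threshold and 1 the tail threshold, against 0.199% and 0.171% of 3516 genes. At 30 min of KCl the list had 1 measured member, Btg2, another adaptor for the CCR4-NOT deadenylase, which went from 99.7 nt to 135.1 nt. In the visual cortex 3 members had enough tags for the tail test, and 1 passed it. The tail of Egr3 was 79.9 nt in the dark and 127.3 nt in the light (limma adjusted p = 5.34e-09, and called in all 14 alternatives that tested it). Egr1 was at 94.2 nt and 95.7 nt (limma adjusted p = 0.999), and Btg2 at 102.5 nt and 78.4 nt (limma adjusted p = 0.102), so these 3 values did not share a direction. Outside this list Mbp, the myelin basic protein mRNA, was at 87.3 nt and 114.3 nt (limma adjusted p = 0.0372), a call kept in 3 of 14 alternatives (limma adjusted p 0.00271 to 0.895).

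The genes whose tail pattern was most like that of Pnrc1 were found by likeness across cultures. By Pearson correlation of centered log2 mean tails over 9 cultures, among 1630 genes, they were Slc25a39 (r = 0.86), Acat1 (0.85), Aplp2 (0.84), Tafa5 (0.83) and H2aj (0.82). At 30 min of KCl their log2 tail changes were 0.25, 0.14, 0.14, 0.21 and 0.25, in a comparison where Pnrc1 had the largest change of all genes. After BDNF they were 0.10, 0.09, 0.01, -0.004 and 0.06, where Pnrc1 was at 0.63. After glu/gly they were -0.02, -0.02, -0.03, -0.02 and -0.03, where Pnrc1 was at 0.37. The likeness in r thus did not extend to a shared lengthening in each 30-min stimulation. By log2 RNA-seq CPM, among 1964 genes, they were Clptm1 (0.97), Ttc7b (0.96), Ahi1 (0.93), Acap2 (0.92) and Vcpip1 (0.91). These values describe 9 libraries that also differ in day in vitro and depth, and Pnrc1 itself had fewer than 50 tags or reads in some of them.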

How the data were processed

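The authors mapped RNA-seq and RPF reads (mm10, STAR 2.4.2 and bedtools per the submitters' processing notes) and deposited for each gene a count, an RPM value and an RPKM value over the open reading frame of 1 transcript, without its first 50 nt. Reads on genes made up 13.8 to 46.1% of the total behind RPM in RNA-seq and 51.3 to 79.5% in RPF libraries, so TE from RPM is given relative to the median gene. They also deposited tag counts with mean and median tail lengths in nt, from TAIL-seq for cultures and adult cortex and PAL-seq v2 for the other tissues. Rows naming no gene, tail standards among them, were left out of totals and tests (at most 0.0881% of counts in RNA-seq and RPF libraries, 1.41 to 19.0% of tags). Tables compiled by the authors were not used, and 2 RPF libraries with contradictory labels entered no group.

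Here CPM is a count scaled to the library's total on genes, and count ratios have Clopper-Pearson intervals (95%). Tags of 8 mice, 1233538 to 4812273 per library on genes, were tested with edgeR 4.0.16 (TMM, filterByExpr, quasi-likelihood), and tails with limma 3.58.1 (genes with at least 50 tags in all 8). Single values were tested by two-sided exact permutation. p-values were Benjamini-Hochberg adjusted at 0.05, and the fits were tested on simulated data. DESeq2 1.42.0, other filters and scales, median tails, a replicate block and leaving out each mouse were alternatives. Cultures and tissues, with 1 library each, were not tested.

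The members, gene lists and tests were chosen with earlier results of these data known. Other genes were named by rule: the 5 most alike in tail and in RNA pattern, up to 2 on each side of Pnrc1 in tail change, list members past a test or threshold (up to 3 a list in tail change), and Npas4, Arc and Fos. The culture tail changes of the nonsense-mediated decay list are not reported here. Usp8 and Cyp46a1, and Lars2 as the shortest, were named after their values were seen.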

Additional observations from a re-analysis of the deposited data

How the results depend on the processing

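For Pnrc1 tags in the light, the log2 change was 0.46 and became significant with DESeq2 (0.46), without a filter on low counts (0.47) and without dark mouse 4 (0.39 to 0.61 over mice left out, adjusted p 0.00123 to 0.186); Pnrc2 tags ranged over -0.16 to 0.021, positive without light mouse 4. Pnrc1 and Pnrc2 tail differences kept their direction over mice left out (-4.25 to -0.73 nt and 8.15 to 17.5 nt); with tails centered on each mouse's median they were -6.24 and 8.48 nt, and the Pnrc1 difference was 0 nt by median tails. No alternative of theirs or of the 6 permutation tests passed 0.05. Over mice left out, genes called with more tags numbered 94 to 130 (116 with all mice, 162 without a filter), with fewer tags 6 to 20 (6 without light mouse 3, 20 without light mouse 4; 12 with all mice, 30 without a filter), with longer tails 1 to 21 (1 without dark mouse 3, 21 without light mouse 4; 10 with all mice), and with shorter tails 0 to 6 (6 without dark mouse 1). Genes with longer tails numbered 1 on the log2 scale or by median tails, 5 and 3 at minimums of 20 and 200 tags, and 3 when centered, and those with shorter tails 3 at 20 tags and 1 with tag weights. The replicate numbers did not pair the mice (correlations of deviations in tags -0.20 to 0.03); with a replicate block Pnrc1 tags stayed at 0.47 (adjusted p = 0.0845) and longer tails fell to 1 gene. The causes of these shifts were not tested.

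In the cultures the Pnrc1 tail change by medians, an alternative chosen after seeing the data, was 0.98 after BDNF, 0.61 after glu/gly, -0.052 and 1.75 at 10 and 30 min of KCl, 0.84 with miR-1 and -0.58 with miR-155. With the GFP culture as control, the Pnrc1 tail change by means was 0.97 for BDNF and 0.71 for glu/gly. GFP against unstimulated was -0.21 when centered, and its Pnrc1 RNA change was 0.53 by tags against -0.27 by reads. Uncentered TE of Pnrc1 turned negative when scaled by reads on genes after glu/gly (-0.00029) and with GFP (-0.041), so TE is given relative to the median gene. Tag numbers of 38 to 91 limit the culture tails.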

Other observations

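2 RPF libraries of miRNA-transduced cultures carried labels that name miR-1 and miR-155 in contradictory ways and entered no group. They held 85 and 542 Pnrc1 RPFs, or 104.0 and 84.3 CPM. Pnrc2 had 2 and 19 RPFs in them, or 2.45 and 2.96 CPM. In both, Pnrc1 thus had more footprints than its paralog.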
